A study of Rattus norvegicus with 36 samples.

Results

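The hearts of adult and juvenile rats that had just completed the same 4 weeks of training were compared on 14 of the 36 arrays of the series, 7 from adults of the later exercise group (24 weeks old) and 7 from juveniles of the early exercise group (9 weeks old). The arrays were assigned to the groups by their labels, and each array held RNA from the whole heart of 1 rat. All were male Wistar Kyoto (WKY) Control rats, offspring of sham-operated mothers with litters of normal size. Later exercise rats ran on a treadmill from week 20 to week 24 of age and early exercise rats from week 5 to week 9, and both groups were killed 72 h after the last bout. The remaining arrays held 7 sedentary rats killed at 24 weeks, 7 sedentary rats killed at 9 weeks and 8 early exercise rats killed at 24 weeks after a period without training. According to the methods, males from the same litter were put in different treatment groups and a litter could give several males, and the litter of each rat was not used here. Age at death and age at training were the same variable in the direct comparison and cannot be told apart in it. The same age difference between the sedentary groups, which shares no array with it, is therefore given beside the main gene groups.

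A rat's heart at 9 weeks is still gaining mass together with the body, and by 24 weeks the animal is adult. In the growing heart, fibroblasts lay down fibrillar collagens, elastin and the fibrillins, and lysyl oxidases then cross-link collagen and elastin into stable fibres. Cardiomyocytes have by then mostly left the cell cycle and grow by enlarging. Steroid hormones also change between the juvenile and the adult male, and many cardiac genes carry binding sites for the glucocorticoid receptor.

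Before normalization the later exercise arrays were dimmer. The mean raw signal of an array had a lowest value of 315, a median of 578 and a highest value of 709 in later exercise rats, against 613, 762 and 962 in early exercise rats at 9 weeks, a ratio of means of 0.684 (two-sided exact permutation p = 0.00408 over 3432 groupings, adjusted p = 0.00816 over 2 measures). On chips 1, 2 and 3 of the labels this ratio was 0.877, 0.554 and 0.583. Between 8625 and 10211 probes were detected on later exercise arrays (median 9345) and between 9727 and 10105 on early exercise arrays (median 9890, ratio 0.940, exact permutation p = 0.00991, adjusted p = 0.00991). A length score, the mean log2 level of very long transcripts minus that of ribosomal protein genes, read as a sign of RNA quality, ran from -0.79 to 0.04 (median -0.22) in later exercise and from -0.21 to 0.19 (median -0.16) in early exercise hearts, and of 17 very long transcripts 5 were lower and none higher (median log2 difference -0.19). The 5 lower ones include Fbn1 (log2 difference -1.05), which is also described among the matrix genes below. After the deposited normalization the 14 arrays correlated with one another at 0.973 to 0.996. Levels are log2 values of that table, so that 1 unit is a doubling, and the part of array brightness and of the length score in the results was not tested beyond their use as covariates. Scaling each array to a common median instead moved the median log2 difference of all tested probes to -0.41 when the median was taken over all 22523 probes and to 0.21 when it was taken over the tested probes. Directions below are those of the deposited table, relative to a median of -0.01, and under the first of these scalings 22 of the 109 named genes past the threshold had the other sign. All 22 were higher as deposited, none passed the test the other way, and set against that scaling's own median their log2 differences were 0.12 to 0.41.

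A large part of the measured transcripts differed between the 2 trained groups. Of 10956 probes with a detection score of at least 0.95 on 7 or more of the 36 arrays, 2019 passed an adjusted p of 0.05 in limma, which is 18.4% of those tested. Of these, 885 were higher (8.08% of the tested probes) and 1134 lower (10.4%) in later exercise than in early exercise hearts. The counts of each list below are to be set against these shares. The differences were mostly small, with a median size of 0.43 log2 units among the probes that passed, and only 17 of these were more than 2-fold higher and 53 more than 2-fold lower. The sign was the same on all 3 chips for 1994 of the 2019. The 2019 were chosen by the difference over these same arrays, which favours equal signs, so this count is no replication. In 467 probes (4.26%) the lowest array of one group lay above the highest array of the other, 224 higher and 243 lower in later exercise, and 463 of these passed the test. At the unadjusted p and fold limits given in the methods, 1485 probes were counted (13.6%), 872 higher and 613 lower. The p-values use a spread between rats that is pooled over all 5 groups of the 36 arrays and moderated across probes. It is not the spread of the 2 compared groups alone. When only the 14 arrays were fitted, 1568 probes passed (726 higher, 842 lower). In whole-heart RNA fewer cells of a type and less RNA per cell cannot be told apart.

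The list of collagens and of the enzymes that assemble collagen fibrils held more genes past the threshold than any other list. Of 30 measured genes of this list, 17 were lower in later exercise hearts and 1 was higher, against 10.4% and 8.08% of all tested probes, and the median log2 difference was -0.32 against -0.01. Between sedentary hearts of the same ages 14 of the 30 were lower and none higher (median -0.28), against 338 lower and 381 higher of all 10956 tested probes. None of the 30 passed the test of the trained minus the sedentary difference. In 11 of the 30 the groups did not overlap, against 4.26% of all tested probes. The number lower was 13 to 17 under 27 alternatives and 27 when arrays were scaled to the median of all probes. Fibrillar collagen I is built from the products of Col1a1 and Col1a2, the chief structural protein of cardiac scar and interstitium. Col1a1 had a lowest, median and highest log2 level of 7.06, 7.86 and 8.67 in later exercise hearts, against 9.31, 9.37 and 9.71 in early exercise hearts at 9 weeks. It was 3.17-fold lower (log2 difference -1.66 ± 0.19 standard error, adjusted p = 6.56e-08 in limma), and every later exercise array lay below every early exercise array. Its sedentary difference was -2.14 (adjusted p = 6.75e-10). Col1a2 ran from 12.97 to 13.48 (median 13.43) in later exercise hearts, against 13.91 to 14.29 (median 14.09) in early exercise hearts (-0.78 ± 0.10, adjusted p = 1.27e-06). Col4a1, a chain of the basement membrane collagen around capillaries and cardiomyocytes, ran from 9.30 to 9.90 (median 9.66) in later exercise and from 10.53 to 11.11 (median 10.81) in early exercise hearts (-1.15 ± 0.11, adjusted p = 3.11e-09). Neither of these genes overlapped between the groups. Col5a2, whose product sets the diameter of collagen I fibrils, had a log2 difference of -1.03 (adjusted p = 3.85e-09), and Col3a1, the second fibrillar collagen of the heart, one of -0.88 (adjusted p = 0.00048) with overlapping groups.

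The promoters of the collagen genes Col1a2 and Col4a1 are printed because both genes fell together with 15 others of the list. They were taken from RefSeq on build GRCr8, each from 250 bases before to 50 bases after the gene's start, read 5′ to 3′ along the gene at chr4:33518307-33518606 (plus strand) and chr16:84885347-84885646 (plus strand). Capitals mark the CCAAT box, a binding motif of nuclear factor Y, searched as CCAAT on both strands and read as ATTGG where it lies on the other strand.
Col1a2: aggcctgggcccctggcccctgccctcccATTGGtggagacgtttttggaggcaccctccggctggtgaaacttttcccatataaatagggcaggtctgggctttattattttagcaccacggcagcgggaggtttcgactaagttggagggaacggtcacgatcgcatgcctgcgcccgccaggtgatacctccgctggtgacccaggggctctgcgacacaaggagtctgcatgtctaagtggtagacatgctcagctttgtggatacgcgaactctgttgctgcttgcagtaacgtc
Col4a1: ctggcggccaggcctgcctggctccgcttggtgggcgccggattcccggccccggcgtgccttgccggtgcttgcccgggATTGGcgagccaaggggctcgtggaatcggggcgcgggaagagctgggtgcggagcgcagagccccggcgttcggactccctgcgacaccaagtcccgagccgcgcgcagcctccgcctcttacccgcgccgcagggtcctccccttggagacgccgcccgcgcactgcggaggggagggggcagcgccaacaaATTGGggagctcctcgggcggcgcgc
The motif stood 1 time in the window of Col1a2 and 2 times in that of Col4a1. Of the 17 lower genes of the list 11 had a promoter in the reference, and 4 of these held CCAAT, against 37.5% of all 33469 promoters of that length.

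The lysyl oxidases, which cross-link collagen and elastin, were among the most strongly lowered genes of the whole comparison. Loxl2 had log2 levels of 5.74, 6.58 and 7.49 (lowest, median, highest) in later exercise hearts, against 8.48, 8.74 and 8.96 in early exercise hearts. It was 3.98-fold lower (-1.99 ± 0.18, adjusted p = 7.51e-10), with the groups apart and the probe detected on 6 of 7 later exercise arrays, and the log2 difference was -1.25 without background correction. Loxl1 ran from 7.70 to 8.49 (median 8.00) in later exercise and from 9.08 to 9.62 (median 9.39) in early exercise hearts (-1.35 ± 0.14, adjusted p = 6.93e-09), and a second Loxl1 probe gave -1.08 (adjusted p = 0.000301). Lox itself ran from 7.98 to 9.10 (median 8.71) in later exercise and from 9.66 to 10.25 (median 9.87) in early exercise hearts (-1.28 ± 0.16, adjusted p = 5.47e-07). All 3 oxidases were also lower in sedentary hearts at 24 weeks than at 9 weeks, by log2 differences of -1.06, -0.92 and -0.91 for Loxl2, Loxl1 and Lox. The only member of the collagen list that was higher was Serpinh1, which was singled out after its values were seen. It encodes HSP47, the collagen chaperone of the endoplasmic reticulum (log2 difference 0.66, adjusted p = 0.000254, groups overlapping).

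**Figure D1:**
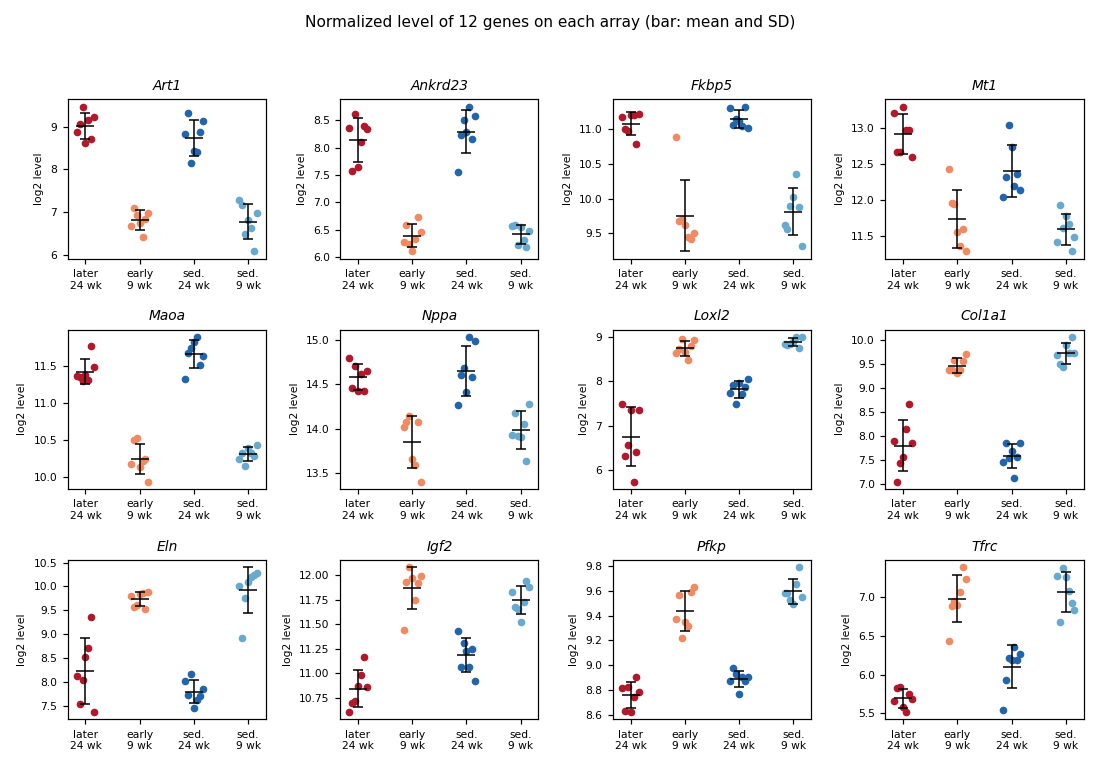
Log2 level on each array (vertical axis) of 12 genes in later exercise hearts at 24 weeks, early exercise hearts at 9 weeks and sedentary hearts at 24 and 9 weeks, with the group mean and SD as bars. Art1, Ankrd23, Mt1, Maoa and Nppa lie higher, and Loxl2, Col1a1, Eln, Igf2, Pfkp and Tfrc lower, on every later exercise array than on any early exercise array, while in Fkbp5 early exercise replicate 1 (10.87) stands above the lowest later exercise array.

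Some matrix genes outside the collagens were also lower. Of 31 measured glycoproteins and proteoglycans 7 were lower and 2 higher (median -0.24), with 10 lower and 2 higher between the sedentary groups. Of 16 matrix proteases and inhibitors 3 were lower and none higher (median -0.17), a share near the 18.4% of all tested probes that passed, and 5 were lower without later exercise replicate 5. Elastin, Eln, which gives arteries their recoil, had log2 levels of 7.37, 8.13 and 9.37 in later exercise hearts, against 9.54, 9.80 and 9.88 in early exercise hearts (2.81-fold lower, -1.49 ± 0.23, adjusted p = 1.46e-05). The arrays did not overlap, the spread was wider among the later exercise rats, and the sedentary difference was -2.13. Fibrillin 1, Fbn1, the microfibril scaffold on which elastin is laid down, was 2.08-fold lower (-1.05, adjusted p = 4.14e-06), and Cilp, a matrix protein first found in cartilage, 2.63-fold lower (-1.40, adjusted p = 9.13e-08). Mmp14, the membrane-bound protease that activates gelatinase A, ran from 8.44 to 8.85 (median 8.54) in later exercise and from 9.45 to 10 (median 9.77) in early exercise hearts (-1.09 ± 0.11, adjusted p = 2.12e-09). The tissue inhibitor Timp3 (-0.66, adjusted p = 0.0012) and the shedding protease Adam17 (-0.54, adjusted p = 0.000104) were lower with overlapping groups, and Adamts9, with a log2 difference of -0.57, missed the threshold (adjusted p = 0.0515) and passed it without later exercise replicate 3 (0.0404) or 5 (0.0206). Sparcl1, a matricellular relative of osteonectin, was lower by 0.45 log2 units (adjusted p = 0.000313), with no overlap. In the other direction, Spp1 (osteopontin), a secreted phosphoprotein of macrophages and stressed muscle, was 4.24-fold higher and is described with the other genes measured by PCR.

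Among imprinted and growth factor genes, Igf2 and Ndn were lower and Slc38a4 was higher. Igf2, the growth factor that drives fetal growth and is expressed from the paternal allele, ran from 10.61 to 11.17 (median 10.86) in later exercise hearts, against 11.44 to 12.08 (median 11.93) in early exercise hearts. It was 2.03-fold lower (-1.02 ± 0.09, adjusted p = 7.51e-10) with no overlap, and its sedentary difference was -0.56 (adjusted p = 8.76e-05). Ndn (necdin), another paternally expressed gene and a suppressor of proliferation in neurons, ran from 7.45 to 8.08 (median 7.58) in later exercise and from 8.28 to 9.16 (median 8.93) in early exercise hearts (-1.23 ± 0.12, adjusted p = 1.59e-09). The amino acid transporter Slc38a4 was the 1 gene of the 8 measured imprinted genes that was higher (0.59, adjusted p = 0.000191), while 2 were lower. Of 28 genes of insulin-like growth factor and Akt signalling, 2 were higher and 3 lower (median -0.05), a share near the 18.4% of all tested probes that passed. The binding proteins of the growth factors went opposite ways, Igfbp3 at -0.57 (adjusted p = 0.000144) and Igfbp6 at 0.46 (adjusted p = 0.00079). Nrep, named for its part in neuronal regeneration, was 2.70-fold lower (-1.43, adjusted p = 1.15e-06, no overlap).

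Cell cycle genes differed little. Of 39 measured members 5 were lower and 1 higher (median -0.10), against 10.4% and 8.08% of all tested probes. Only 13 of the 39 were detected on all 14 arrays. When each array was scaled to the median of its tested probes, the median of the list was 0.36, the opposite sign, and with array brightness as a covariate 2 of the list were lower. Tyms, which makes thymidylate for DNA synthesis, had log2 levels from 5.69 to 6.35 (median 5.76) in later exercise and from 6.09 to 6.53 (median 6.42) in early exercise hearts, and its probe was detected on 2 of 7 later exercise arrays (-0.47, adjusted p = 0.00105). The replication clamp Pcna (-0.28, adjusted p = 0.00304) and the primase subunit Prim1 (-0.51, adjusted p = 0.0109) were lower with overlap. The calls of Tyms and Pcna were lost under the tested-probe scaling (adjusted p = 0.904 and 0.118), and that of Prim1 with brightness as a covariate (adjusted p = 0.152) and without later exercise replicates 3 and 5 together (adjusted p = 0.115). The growth arrest genes Gadd45b (0.77 ± 0.13, adjusted p = 6.82e-05) and Gadd45a (0.46, adjusted p = 0.00204) were higher, 2 of 14 measured cell cycle inhibitors, where 1 was lower. Tfrc, the transferrin receptor through which cells take up iron, was not well above background on any later exercise array (log2 levels 5.52 to 5.84) and was detected on all 7 early exercise arrays (6.44 to 7.38). It was at least 2.13-fold lower in later exercise hearts, with the early exercise mean set against, on each later exercise array, the higher of its Tfrc signal and its lowest signal among detected probes (adjusted p = 1.31e-09). At its smallest size under the alternatives, the log2 difference of Tfrc was -0.72.

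Genes of striated muscle gave some of the largest rises. Art1, a mono-ADP-ribosyltransferase of the muscle cell surface, had log2 levels of 8.62, 9.06 and 9.47 (lowest, median, highest) in later exercise hearts, against 6.42, 6.83 and 7.10 in early exercise hearts. It was 4.60-fold higher (2.20 ± 0.19, adjusted p = 5.92e-10), and the lowest later exercise array stood well above the highest early exercise array. Ankrd23, a stretch-responsive ankyrin repeat protein that binds titin, ran from 7.57 to 8.60 (median 8.33) in later exercise and from 6.11 to 6.73 (median 6.33) in early exercise hearts (3.36-fold higher, 1.75 ± 0.17, adjusted p = 1.59e-09). Myot (myotilin), which cross-links actin at the Z-disc, ran from 8.34 to 9.05 (median 8.57) in later exercise and from 6.91 to 7.77 (median 7.33) in early exercise hearts (2.39-fold higher, 1.26 ± 0.15, adjusted p = 1.95e-07). All 3 genes were without overlap, and all 3 were also higher in sedentary hearts at 24 weeks than at 9 weeks, by 1.96, 1.87 and 2.02 log2 units for Art1, Ankrd23 and Myot. Without background correction the trained differences of Art1 and Ankrd23 were 1.44 and 1.00. The sarcomere list as a whole did not move one way, with a median of 0.05. Of its 34 measured members 6 were higher and 3 lower, against 8.08% and 10.4% of all tested probes. Lmod2 (leiomodin 2), which nucleates thin filaments, was higher by 0.58 (adjusted p = 4.45e-05, no overlap), and the essential light chain Myl1, most abundant in fast skeletal muscle, by 0.57 (adjusted p = 0.000253, overlapping). The Z-disc protein Pdlim5 was lower (-0.84, adjusted p = 0.000876, no overlap).

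Nppa, the atrial natriuretic peptide that the heart secretes when stretched, was the only 1 of 16 genes of the hypertrophy-associated fetal programme to pass. Its log2 levels were 14.42, 14.61 and 14.79 in later exercise hearts, against 13.41, 14.03 and 14.15 in early exercise hearts (1.65-fold higher, 0.73 ± 0.12, adjusted p = 2.73e-05), with no overlap. Sedentary hearts showed 0.67 (adjusted p = 0.000203). Nppa was also the only 1 of 8 measured atrial cardiomyocyte markers to pass, with 6 of the 8 above 0 and a list median of 0.12. The share of atrium in the whole hearts was not tested. Of 42 measured genes of calcium handling and ion channels 4 were higher and 9 lower (median 0.03), against 8.08% and 10.4% of all tested probes. With brightness as a covariate 2 of the list were lower, and 5 without later exercise replicate 6. Kcne1, the small subunit of the slow delayed rectifier potassium channel, ran from 6.49 to 8.27 (median 7.03) in later exercise and from 5.67 to 6.56 (median 5.96) in early exercise hearts, where 5 of 7 arrays detected it (2.42-fold higher, 1.27 ± 0.24, adjusted p = 0.000172). One range ran into the other at its edge, and the log2 difference of Kcne1 was 0.70 at its smallest under the alternatives. Hrc, the histidine-rich calcium-binding protein of the sarcoplasmic reticulum, was higher by 0.39 (adjusted p = 0.0011). The potassium channels Kcnj8, the pore of the vascular ATP-sensitive channel (-0.38, adjusted p = 0.00145), and Kcnd3, which carries the transient outward current (-0.58, adjusted p = 0.00194), were lower, and the call of Kcnd3 was lost with brightness as a covariate (adjusted p = 0.0513) and with the tested-probe scaling (adjusted p = 0.141).

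Outside the lists, Sv2b, a glycoprotein of synaptic vesicles, had log2 levels of 10.95, 11.94 and 12.72 in later exercise hearts, against 12.92, 13.41 and 13.75 in early exercise hearts (3.01-fold lower, -1.59 ± 0.23, adjusted p = 5.45e-06). The groups did not overlap, and the sedentary difference was -0.38 (adjusted p = 0.393). Sv2b did not pass the test of the trained minus the sedentary difference. Rnd1 was 2.31-fold higher (1.21, adjusted p = 7.44e-09, and 0.67 at its smallest under the alternatives other than scaling to the median of all probes). Maoa, the monoamine oxidase that breaks down noradrenaline and serotonin, was 2.25-fold higher. Maoa ran from 11.29 to 11.77 (median 11.36) in later exercise and from 9.94 to 10.52 (median 10.22) in early exercise hearts (1.17 ± 0.14, adjusted p = 1.95e-07). Both were without overlap. Of the dim probes at the ends of the ranking, Krt24, a keratin, was 2.57-fold lower (-1.36, adjusted p = 2.65e-09, detected on 3 of 7 later exercise arrays, and -0.74 without background correction). Limd1, a LIM domain scaffold protein, was 2.44-fold lower (adjusted p = 3.97e-05) and Sbsn (suprabasin, a protein of the epidermis) 2.15-fold higher (adjusted p = 2.34e-05). At their smallest under the alternatives, the log2 differences were -0.76 for Limd1 and 0.59 for Sbsn.

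**Figure D2:**
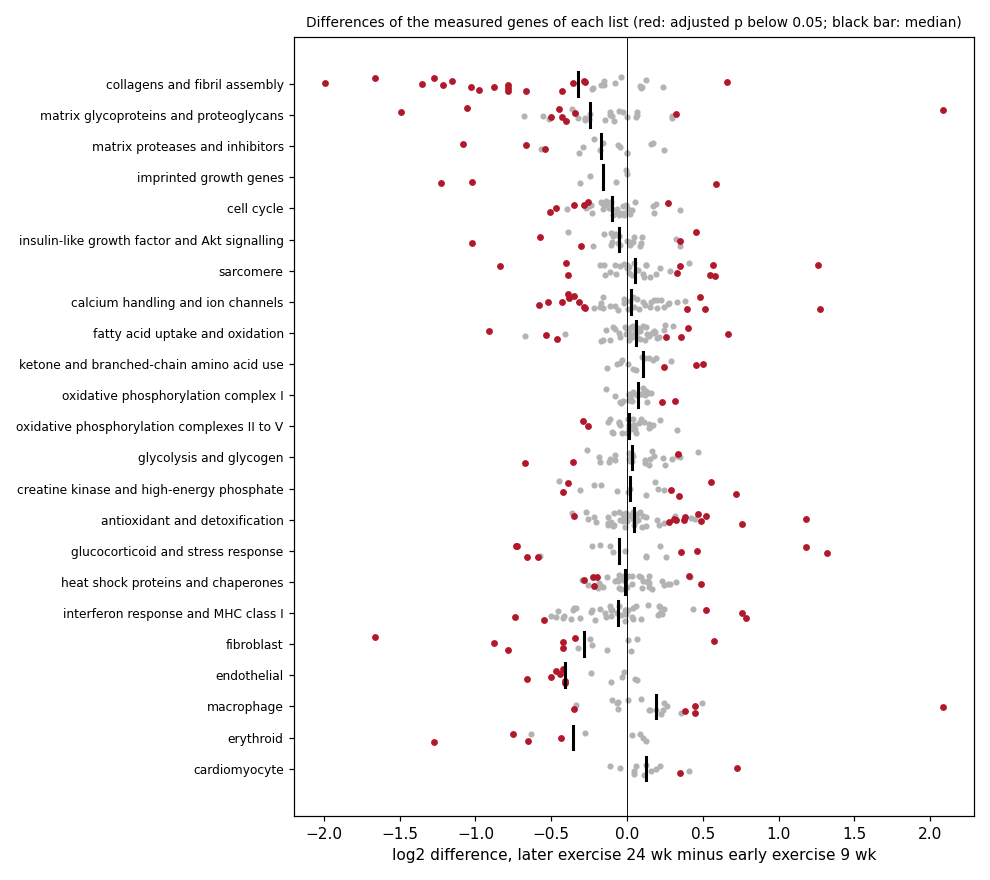
Log2 difference, later exercise at 24 weeks minus early exercise at 9 weeks (horizontal axis), of every measured gene of 23 gene and marker lists (rows), with genes past an adjusted p of 0.05 in red and the list median as a black bar. The collagen list has 17 red points left of 0 and 1 right of it, the antioxidant list 1 left and 10 right, and most other lists have medians near 0.

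In the deposited table energy metabolism differed in single enzymes rather than in whole pathways. The counts stand against 8.08% higher and 10.4% lower of all tested probes. Of 50 measured genes of fatty acid uptake and oxidation 4 were higher and 3 lower (median 0.06), of 26 complex I genes 2 were higher (median 0.07), of 31 genes of complexes II to V 2 were lower (median 0.02), and of 30 citric acid cycle genes 2 were higher (median -0.03). Acads, the short-chain acyl-CoA dehydrogenase, ran from 10.69 to 11.56 (median 11.01) in later exercise and from 10.30 to 10.52 (median 10.44) in early exercise hearts (1.58-fold higher, 0.66 ± 0.09, adjusted p = 2.47e-06, no overlap). Ppargc1a, the coactivator PGC-1α that drives mitochondrial biogenesis, ran from 5.68 to 6.67 (median 6.43) in later exercise and from 6.80 to 7.72 (median 7.16) in early exercise hearts (1.88-fold lower, -0.91 ± 0.19, adjusted p = 0.000546, no overlap, detected on 6 of 7 later exercise arrays). Its sedentary difference was -0.22 (adjusted p = 0.569), and the trained minus the sedentary difference did not pass. Cpt1a, the liver-type carnitine palmitoyltransferase, was lower by 0.46 log2 units (adjusted p = 0.00149), while the muscle type, Cpt1b, was higher by 0.40. Bckdha, a subunit of the dehydrogenase of branched-chain amino acids, was higher by 0.50 (adjusted p = 6.02e-06, no overlap), 1 of 3 higher genes among 16 of ketone and branched-chain amino acid use, none of which was lower, though 6 were lower and none higher when arrays were scaled to the median of all probes. Pc, the pyruvate carboxylase that refills the citric acid cycle, was higher by 0.61 (adjusted p = 0.00105). Pfkp, the platelet isoform of phosphofructokinase, ran from 8.62 to 8.90 (median 8.79) in later exercise and from 9.22 to 9.63 (median 9.37) in early exercise hearts (1.60-fold lower, -0.68 ± 0.07, adjusted p = 8.79e-09). Of 29 genes of glycolysis and glycogen it was 1 of 2 that were lower, and 1 was higher.

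Among the respiratory subunits, Ndufb7 (0.31, adjusted p = 0.00204) and Ndufs7 (0.23, adjusted p = 0.0107) of complex I were higher and Cox8a of complex IV was lower (-0.29, adjusted p = 0.00429). The calls of Ndufs7 and Cox8a were not stable, with an adjusted p of 0.0639 for Ndufs7 when only the 14 arrays were fitted and of 0.0725 for Cox8a with brightness as a covariate. High-energy phosphate genes had 4 higher and 2 lower of 17 (median 0.02), against 8.08% and 10.4% of all tested probes. Gamt, which makes creatine, ran from 8.84 to 9.29 (median 9.01) in later exercise and from 7.87 to 8.71 (median 8.43) in early exercise hearts (1.64-fold higher, 0.72 ± 0.12, adjusted p = 3.02e-05), with no overlap, and its sedentary difference was -2.43e-05 (adjusted p = 1). The trained minus the sedentary difference of Gamt did not pass. Ckb, the brain-type creatine kinase, was higher by 0.34 (adjusted p = 0.00277). Ampd1, the muscle AMP deaminase, was not well above background on any early exercise array and was detected on 6 of 7 later exercise arrays, so that it was at least 1.31-fold higher (adjusted p = 0.000549). In lipid and sterol metabolism the desaturase Scd was 4.13-fold lower (-2.05 ± 0.56, adjusted p = 0.00799), with levels from 5.58 to 6.61 (median 5.99) in later exercise hearts, 4 of 7 detected, against 6.02 to 12 (median 7.77) in early exercise hearts. Car3, the carbonic anhydrase of fat and slow muscle, was 3.32-fold lower (-1.73, adjusted p = 0.00512), from 6.69 to 7.50 in later exercise and from 7.66 to 11.61 in early exercise hearts. Early exercise replicate 1 held the highest value of both genes, and without it the log2 differences were -1.38 for Scd and -1.28 for Car3 (adjusted p = 0.0216 and 0.0173). Without background correction Scd stood at -1.32. Alox15, a lipoxygenase of arachidonic and linoleic acid, was 5.01-fold lower with overlapping and widely spread groups (-2.32 ± 0.51, adjusted p = 0.00111), from 6.39 to 10.20 (median 7.95) in later exercise and from 9.74 to 12.41 (median 10) in early exercise hearts. Of 23 genes of steroid, sterol and thyroid pathways 5 were lower and 1 higher (median -0.16), among them the thyroid hormone receptor Thra (-0.33, adjusted p = 0.00207) and Dhcr7, the last step of cholesterol synthesis (-0.62, adjusted p = 0.00146, detected on 3 of 7 later exercise arrays). The call of Dhcr7 was lost with brightness as a covariate (adjusted p = 0.0604) and with the tested-probe scaling (adjusted p = 0.244).

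Stress and detoxification genes included several of the strongest rises. Fkbp5, a co-chaperone of the glucocorticoid receptor that glucocorticoids induce, had log2 levels of 10.78, 11.16 and 11.21 in later exercise hearts, against 9.41, 9.63 and 10.87 in early exercise hearts (2.49-fold higher, 1.32 ± 0.15, adjusted p = 8.57e-08). The groups overlapped through early exercise replicate 1 alone, whose 10.87 lay above the next highest value of 9.71, and the sedentary difference was 1.33 (adjusted p = 1.21e-07). Mt1, a metallothionein that binds zinc and copper and is induced by metals and glucocorticoids, ran from 12.60 to 13.30 (median 12.97) in later exercise and from 11.29 to 12.43 (median 11.59) in early exercise hearts (2.26-fold higher, 1.18 ± 0.16, adjusted p = 1.43e-06), with no overlap and a sedentary difference of 0.81. The list of glucocorticoid and stress genes was split, with 4 of 18 higher and 4 lower (median -0.05), against 8.08% and 10.4% of all tested probes. Klf9, a transcription factor that glucocorticoids and thyroid hormone induce (-0.66, adjusted p = 0.000136), and Sgk1, the serum- and glucocorticoid-induced kinase (-0.73, adjusted p = 0.000326), were lower while Fkbp5 was higher. Of 18 immediate early genes 2 were higher and 1 lower, a share near the 18.4% of all tested probes that passed. Among them the phosphatase Dusp1 stood at -0.59 (adjusted p = 0.00512) and the transcription factor Egr2 at 0.52 (adjusted p = 0.000376).

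The promoter of Mt1 is printed because metallothionein genes are the textbook case of a metal-responsive promoter and Mt1 rose most in the antioxidant list. It was taken from RefSeq on build GRCr8 at chr19:10832926-10833225 (minus strand), 5′ to 3′ along the gene. Capitals mark matches to TGCNCNC, searched on both strands. This string is looser than the core of the metal response element, TGCRCNC, where R is A or G.
Mt1: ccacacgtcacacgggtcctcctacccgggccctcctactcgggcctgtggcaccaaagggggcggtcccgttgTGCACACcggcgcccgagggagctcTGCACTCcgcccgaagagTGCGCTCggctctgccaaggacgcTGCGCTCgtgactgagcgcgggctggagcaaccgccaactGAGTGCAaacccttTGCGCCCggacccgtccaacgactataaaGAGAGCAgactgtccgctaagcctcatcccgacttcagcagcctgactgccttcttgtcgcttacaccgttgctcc
The window held 7 matches to TGCNCNC. In the last of them, GAGAGCA, the other strand reads TGCTCTC, with T where the core has A or G. At least 1 match to TGCNCNC stood in 49.6% of all 33469 promoters of that length, and 7 or more in 0.108%.

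Of 54 measured antioxidant and detoxification genes 10 were higher and 1 lower (median 0.05), against 8.08% and 10.4% of all tested probes. Together they were a share near the 18.4% of all tested probes that passed. With brightness as a covariate 5 were higher, and 1 was higher and 31 lower when arrays were scaled to the median of all probes. Ces1d, a carboxylesterase, ran from 11.34 to 11.74 (median 11.45) in later exercise and from 10.44 to 10.93 (median 10.71) in early exercise hearts (1.69-fold higher, adjusted p = 1.25e-05), and its relative Ces1c was 2.31-fold higher (1.21, adjusted p = 1.83e-08). Both were without overlap. Txnrd2, the mitochondrial thioredoxin reductase (0.32, adjusted p = 0.000806), and Gpx4, which reduces lipid peroxides (0.31, adjusted p = 0.000856), were higher by small amounts with no overlap. Sts, the steroid sulfatase that frees steroids from their sulfates, ran from 9.38 to 9.92 (median 9.67) in later exercise and from 8.19 to 8.73 (median 8.56) in early exercise hearts (2.21-fold higher, 1.14 ± 0.10, adjusted p = 5.10e-10). Cda, the cytidine deaminase of pyrimidine salvage, was 2.45-fold higher (1.29, adjusted p = 1.95e-07). Its log2 difference was 0.77 at its smallest under the alternatives other than scaling to the median of all probes. Of 45 heat shock proteins and chaperones 2 were higher, Hspb1 (0.41, adjusted p = 0.000877) and Hspa4l (0.49, adjusted p = 0.00231), and 4 were lower. Among the lower ones was Pdia6, a disulfide isomerase of the endoplasmic reticulum (-0.28, adjusted p = 0.00367), whose call was lost with brightness as a covariate (adjusted p = 0.0519) and with the tested-probe scaling (adjusted p = 0.0988).

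Interferon response and MHC class I genes hardly differed between the trained groups. Of 48 measured members 3 were higher, the chemokine Cxcl11 (0.76, adjusted p = 2.92e-05), the ubiquitin ligase Trim21 (0.52, adjusted p = 0.000389) and the oligoadenylate synthetase Oas1a (0.79, adjusted p = 0.00109). Lower were 2, Ifit2 (-0.74, adjusted p = 0.00757) and the chemokine Cxcl9 (-0.55, adjusted p = 0.0169, and 0.0599 without early exercise replicate 7). The list median was -0.06. Of all tested probes 8.08% were higher and 10.4% lower. Oas1k, an oligoadenylate synthetase outside the list, ran from 8.78 to 9.71 (median 8.87) in later exercise and from 6.50 to 8.57 (median 7.45) in early exercise hearts (3.08-fold higher, 1.63 ± 0.25, adjusted p = 1.71e-05), and as one of several near-identical paralogs its probe was not checked for cross-hybridization. Between sedentary hearts of the same ages 21 of the 48 genes were lower and 1 higher, with a median of -0.50. Of all 10956 tested probes 338 were lower and 381 higher there. The median of the trained minus the sedentary difference was 0.39, between 0.26 and 0.46 under the alternatives other than scaling to the median of all probes, where it was -0.05 and 0.30 above that of all tested probes, and 46 of the 48 had a value above 0. None of the 48 passed the test of that difference, and 14 had an unadjusted p below 0.05. Of all 10956 tested probes 1437 had an unadjusted p below 0.05, and over all 10956 the median trained minus sedentary difference was -0.02.

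**Figure D3:**
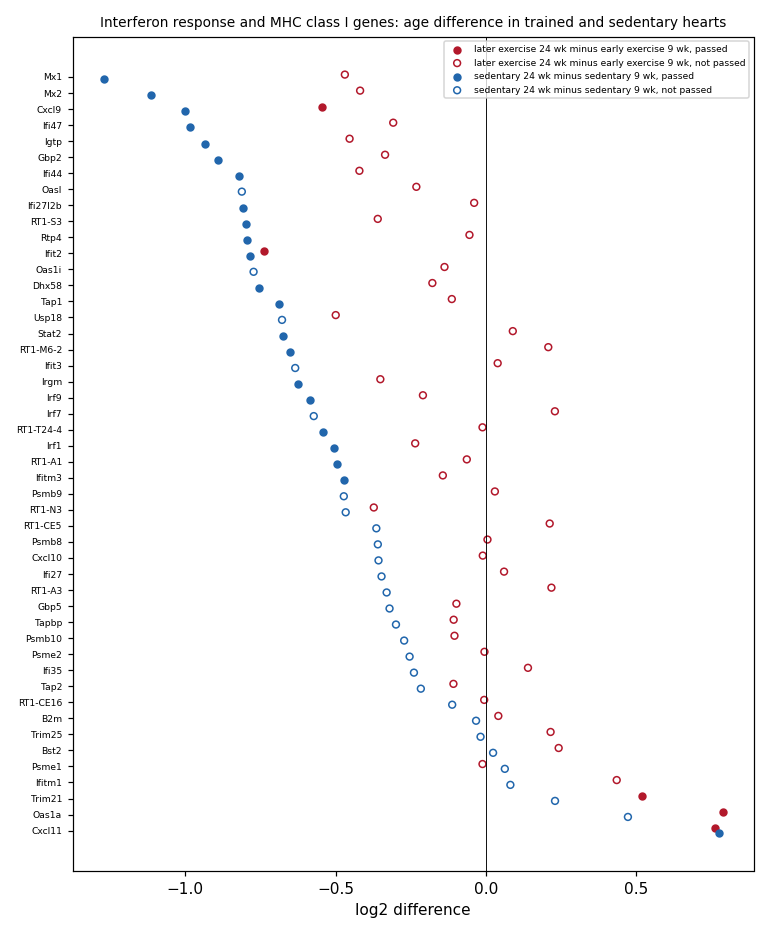
Log2 age difference (horizontal axis) of the 48 measured interferon response and MHC class I genes (rows), later exercise at 24 weeks minus early exercise at 9 weeks in red and sedentary at 24 weeks minus sedentary at 9 weeks in blue, filled where the adjusted p was below 0.05. In trained hearts 5 points are filled, 3 of them right of 0, against 22 in sedentary hearts, of which 21 lie left of 0.

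Markers of the cell types of the heart were read beside these lists, against 8.08% higher and 10.4% lower of all tested probes. All 13 measured cardiomyocyte markers were detected on all 14 arrays, 2 were higher (Nppa and the cardiac actin Actc1) and none lower, and their summed linear level ran from 247946 to 292164 (median 273994) in later exercise and from 227102 to 260400 (median 251720) in early exercise hearts. The call of Actc1 (0.35, adjusted p = 0.031) was lost when only the 14 arrays were fitted (adjusted p = 0.0691) and without any 1 of later exercise replicates 2, 3 and 7 and early exercise replicates 1, 4 and 5 (adjusted p from 0.0611 to 0.078). Of 14 fibroblast markers 6 were lower and 1 higher (median -0.28), and their sum ran from 72714 to 86269 (median 82119) in later exercise and from 88689 to 100194 (median 97150) in early exercise hearts, without overlap. The 1 higher marker was the collagen receptor Ddr2 (0.58, adjusted p = 0.000764), and 3 of the lower ones were collagen genes also counted above. Of 13 endothelial markers 7 were lower and none higher (median -0.41, and 4 lower with the length score as a covariate), with Emcn (endomucin, -0.45, adjusted p = 5.96e-05) and the junction protein Cldn5 (-0.42, adjusted p = 0.00138) without overlap and the nitric oxide synthase Nos3 (-0.47, adjusted p = 0.00277) and Vwf (von Willebrand factor, -0.50, adjusted p = 0.0111) with overlap. Their sum ran from 28352 to 40790 (median 33178) in later exercise and from 34989 to 40754 (median 36775) in early exercise hearts. Between sedentary hearts of the same ages 8 of the 14 fibroblast markers (median -0.39) and 1 of the 13 endothelial markers (median -0.29) were lower and none higher. Of all 10956 tested probes 338 were lower and 381 higher there. No marker of these 2 lists passed the test of the trained minus the sedentary difference. The part of these cell types in the lower collagen and basement membrane genes was not tested.

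Of 21 macrophage markers 4 were higher and 1 lower (median 0.19), against 8.08% and 10.4% of all tested probes. The higher ones were Spp1, the scavenger receptor Cd163 (0.45, adjusted p = 0.00692) and the complement genes C1qa (0.45, adjusted p = 0.0109) and C1qc (0.38, adjusted p = 0.0363). When arrays were scaled to the median of all probes, 1 of the 21 markers was higher and 11 were lower. Their sum ran from 17742 to 23930 (median 22871) in later exercise and from 16058 to 20615 (median 17487) in early exercise hearts. Between sedentary hearts of the same ages 2 of the 21 were higher and 2 lower (median 0.18). The call of Cd163 was lost with brightness as a covariate (adjusted p = 0.0857) and that of C1qa with the length score as a covariate (adjusted p = 0.0603). That of C1qc was lost with either covariate (adjusted p = 0.191 and 0.189) and without any 1 of later exercise replicates 4, 5 and 6 and early exercise replicates 2, 4, 5, 6 and 7 (adjusted p from 0.0559 to 0.0893). Of 8 neutrophil and mast cell markers 2 were higher, the mast cell tryptases Tpsab1 (0.67, adjusted p = 0.000437) and Tpsb2 (0.41, adjusted p = 0.0319), and 1 was lower, the mast cell chymase Cma1 (-0.57, adjusted p = 0.0317), with a median of -0.04. The calls of Tpsb2 and Cma1 were lost with brightness as a covariate (adjusted p = 0.0706 and 0.0657), that of Tpsb2 without any 1 of later exercise replicates 1, 2 and 5 and early exercise replicates 1, 3 and 5 (adjusted p from 0.0551 to 0.0916), and that of Cma1 without any 1 of later exercise replicates 2, 3 and 6 and early exercise replicates 1, 2 and 6 (adjusted p from 0.0525 to 0.11). Of 8 class II and dendritic markers RT1-Da was lower (-0.36, adjusted p = 0.02), and its call was lost when only the 14 arrays were fitted (adjusted p = 0.054) and without later exercise replicate 2 (0.0593) or early exercise replicate 7 (0.055). None of 17 T and NK cell markers passed. Of 10 erythroid markers 4 were lower (median -0.36), and 2 with brightness as a covariate or without early exercise replicate 5. These were the mitophagy receptor Bnip3l (-0.44, adjusted p = 0.00032, no overlap), the haemoglobin chaperone Ahsp (-1.27, adjusted p = 0.0093), the anion exchanger Slc4a1 (-0.75, adjusted p = 0.015) and the globin Hbb-b1 (-0.65, adjusted p = 0.0342). The calls of Ahsp and Hbb-b1 were lost with brightness as a covariate (adjusted p = 0.051 and 0.118), that of Hbb-b1 also without any 1 of later exercise replicates 3, 5, 6 and 7 and early exercise replicates 2, 4, 5 and 6 (adjusted p from 0.0537 to 0.0899), and that of Slc4a1 without early exercise replicate 5 (adjusted p = 0.0547). Between sedentary hearts 4 of the 10 erythroid markers were lower and none higher (median -0.23). Wt1, a marker of the epicardium, was lower (-0.45, adjusted p = 0.00339), and its call was lost with the tested-probe scaling (adjusted p = 0.223).

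Of the 6 genes listed because they were also assayed by PCR, Spp1 and Rhoa were higher and 4 did not pass. Spp1 had log2 levels of 7.66, 10.18 and 11.80 in later exercise hearts, against 6.56, 7.32 and 9.05 in early exercise hearts (4.24-fold higher, 2.08 ± 0.45, adjusted p = 0.00105). Its groups overlapped, with a spread over several log2 units within each, and its sedentary difference was 3.19 (adjusted p = 8.47e-06). Rhoa, a small G protein of the actin cytoskeleton, ran from 11.99 to 12.30 (median 12.18) in later exercise and from 11.43 to 12.09 (median 11.65) in early exercise hearts (1.33-fold higher, 0.41 ± 0.14, adjusted p = 0.0323), and its call was lost with brightness as a covariate (adjusted p = 0.109) and without any 1 of later exercise replicates 2, 3 and 5 and early exercise replicates 2, 3, 4 and 6 (adjusted p from 0.0531 to 0.0776). The extracellular superoxide dismutase Sod3 differed by -0.05 ± 0.12 (adjusted p = 0.836), the respiratory subunit Cox4i1 by 0.22 ± 0.11 (adjusted p = 0.183) and the muscle creatine kinase Ckm by 0.19 ± 0.10 (adjusted p = 0.192). Under the tested-probe scaling Cox4i1 and Ckm passed (adjusted p = 0.0102 and 0.015). The brightest of the 3 probes of Actb (β-actin), a gene often used for normalization in PCR, differed by -0.29 ± 0.11 (adjusted p = 0.0516), and the others by -0.35 and -0.36, none past the threshold. The brightest probe passed without later exercise replicate 5 (adjusted p = 0.0124) or 6 (0.00441) or early exercise replicate 1 (0.0469).

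Much of the difference between the trained groups ran in the direction of the age difference between sedentary hearts. In sedentary hearts 719 probes passed between 24 and 9 weeks (6.56% of those tested), and 395 of them also passed in the same direction between the trained groups, which is 19.6% of the 2019 and 54.9% of the 719. Only 1 probe passed in opposite directions. Of the 2019 probes 1764 (87.4%) had the same sign in sedentary hearts, against 65.1% of all tested probes. Among the 2019 probes the median sedentary difference was 0.18 in the direction of the trained difference, where the trained median was 0.43. These probes were chosen by the trained test, which enlarges their trained difference, so the medians cannot show a smaller sedentary difference. Of the 2019, 559 had a sedentary difference of less than 0.1 log2 units. The smaller number that passed in sedentary hearts does not by itself show a difference between the comparisons, which was tested directly as follows.

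**Figure D4:**
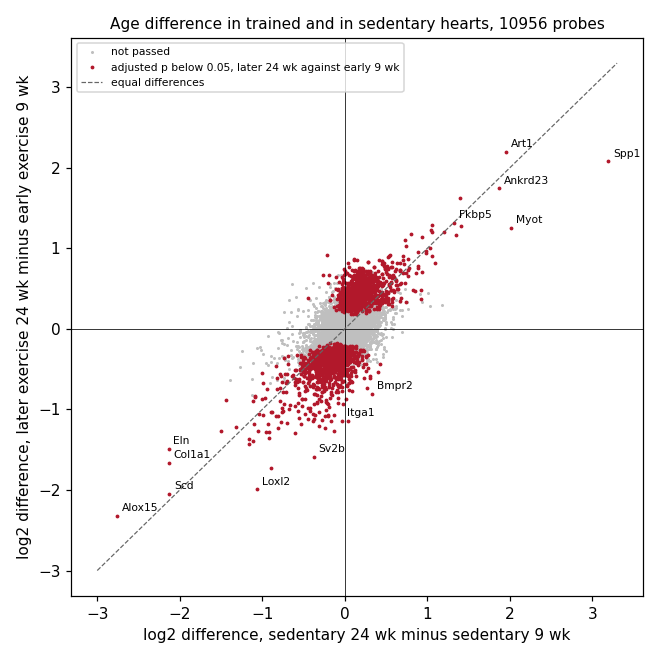
Log2 difference of each of 10956 probes, sedentary hearts at 24 weeks minus 9 weeks (horizontal axis) against later exercise at 24 weeks minus early exercise at 9 weeks (vertical axis), with the 2019 probes that passed in trained hearts in red and the line of equal differences dashed. Art1, Ankrd23 and Col1a1 lie near the line, Loxl2 and Sv2b below it, and Bmpr2 and Itga1 at sedentary differences of 0.33 and -0.03.

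The trained age difference differed from the sedentary age difference in 16 probes (0.146% of those tested), 2 upward and 14 downward. All 16 also passed between the trained groups and none between the sedentary groups. The tested difference contains the trained difference on the same arrays, which favours the former. At an unadjusted p below 0.05 the trained minus the sedentary difference had 1437 probes. Bmpr2, a receptor of bone morphogenetic proteins in vessel walls, had log2 levels of 8.19, 8.52 and 9.14 in later exercise hearts, against 9.15, 9.40 and 9.79 in early exercise hearts (1.75-fold lower, -0.81, adjusted p = 0.000479), with the groups just apart. Its sedentary difference was 0.33, and the trained minus the sedentary difference was -1.14 (adjusted p = 0.0347). Itga1, the integrin subunit that binds collagen, ran from 7.73 to 9.10 (median 8.74) in later exercise and from 9.40 to 9.99 (median 9.70) in early exercise hearts (2.21-fold lower, -1.14, adjusted p = 4.14e-06). With a sedentary difference of -0.03, the trained minus the sedentary difference was -1.11 (adjusted p = 0.0347). Rnf125, a ubiquitin ligase, had trained and sedentary differences of -0.49 and 0.28 (trained minus sedentary -0.77, adjusted p = 0.0276), and Mark2, a kinase of microtubule-binding proteins, of -0.35 and 0.26 (-0.61, adjusted p = 0.0347).

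Npl, the sialic acid lyase, was the 1 named gene of the 2 upward probes. It ran from 9.90 to 10.37 (median 10.03) in later exercise and from 9.07 to 9.48 (median 9.21) in early exercise hearts (1.80-fold higher, 0.85 ± 0.12, adjusted p = 2.04e-06), where the sedentary difference was 0.11 (trained minus sedentary 0.74, adjusted p = 0.0464). Each trained group can also be set beside the sedentary rats of its own age, though those comparisons share arrays with the one above. Later exercise minus sedentary at 24 weeks gave 0.43 for Npl, -1.20 for Itga1 and -1.32 for Bmpr2. Early exercise minus sedentary at 9 weeks gave -0.31 for Npl, -0.09 for Itga1 and -0.18 for Bmpr2, and no tested probe passed an adjusted p of 0.05 in that comparison. The median raw signal was 578 in later exercise and 762 in early exercise arrays, and 897 and 815 in sedentary arrays at 24 and 9 weeks. The median length score was -0.22 in later exercise and -0.16 in early exercise hearts, and 0.26 and 0.20 in sedentary hearts at 24 and 9 weeks. Of the 17 very long transcripts 1 had a trained minus sedentary difference above 0 (median -0.30) and none passed. An unadjusted p below 0.05 was found for 7 of the 17, against 1437 of all 10956 tested probes. With array brightness as a covariate no probe passed the test of the trained minus the sedentary difference (adjusted p from 0.376 to 0.420 for these 5 genes). The number that passed was 33, 5, 8, 9 and 60 without later exercise replicate 1, 2, 5, 6 and 7, and 7, 6, 1, 0 and 5 without early exercise replicate 3, 4, 5, 6 and 7. Of the 14 fits that leave out 1 replicate, Rnf125 passed in 13, Mark2 in 11, Bmpr2 and Itga1 in 7 each and Npl in 5.

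**Figure D5:**
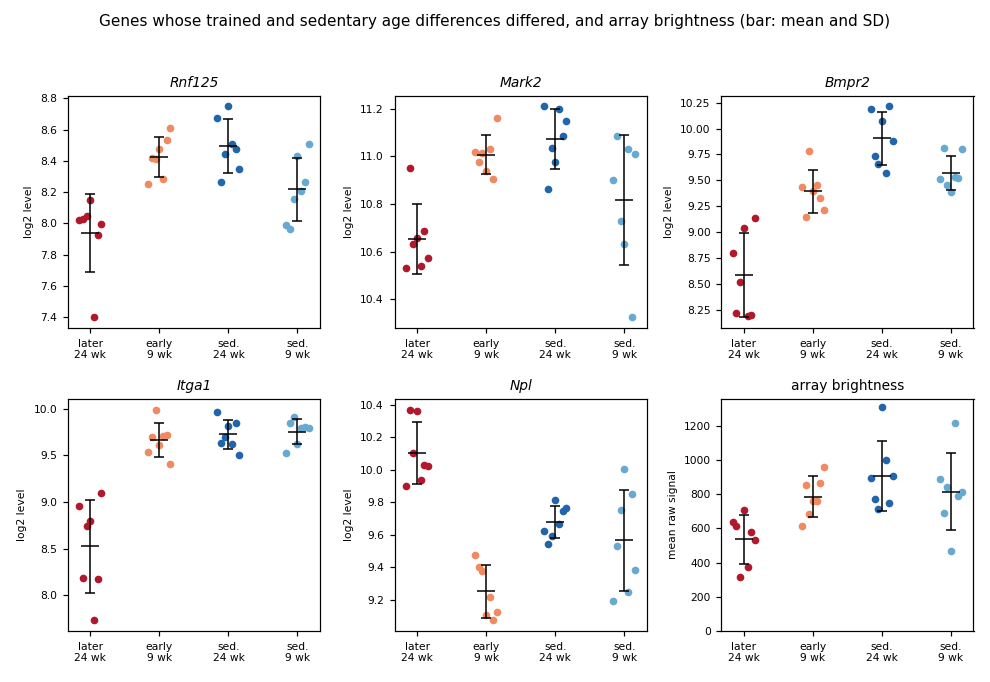
Log2 level on each array of Rnf125, Mark2, Bmpr2, Itga1 and Npl, and the mean raw signal of each array before normalization (vertical axes), in later exercise hearts at 24 weeks, early exercise hearts at 9 weeks and sedentary hearts at 24 and 9 weeks, with mean and SD as bars. Itga1 and Bmpr2 are lowest in the later exercise hearts, and the mean raw signal has its lowest median there too (578).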

How the data were processed

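RNA of 36 whole hearts was hybridized to Illumina RatRef-12 beadchips, which the labels place on 3 chips of 12 arrays, each holding all 5 groups. The methods describe fewer arrays per beadchip, and the chips named in the text follow GEO's labels. The deposited intensity values are raw signals per probe and array, and the fraction deposited beside them is a detection score that rises with the signal, read as 1 minus the detection p-value. The authors' methods describe a variance-stabilizing transformation and analysis of variance of these signals. The normalized table was deposited as log2 values, for which the submitters' processing notes name R 3.2.2 and limma 3.24.15. Its values differ by at most 0.0417 from normexp background correction with an offset of 16 and quantile normalization computed here, and were used as deposited.

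Of 22523 probes 13793 carry 1 gene symbol and 8730 none, and no gene is named from the latter. Probes with a detection score of 0.95 or more on at least 7 of the 36 arrays were tested (10956, with 8038 symbols of 7904 genes). One linear model of 5 groups was fitted to all 36 arrays in R 4.3.3 with limma 3.58.1 (lmFit and eBayes), p-values were adjusted over all tested probes by the Benjamini-Hochberg method, and calls are at an adjusted p below 0.05. Each gene of a list was counted by its brightest probe. The script was tested on simulated data.

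The groups compared, the gene lists, alternatives and the rule for naming genes were chosen with earlier results of these data known. Named genes were the 14 each way with the largest log2 differences, up to 4 members of each list with the smallest p, the 6 genes of the study's PCR and the 4 each way with the smallest adjusted p of the trained minus sedentary difference, and some of these are left out. Replicate numbers do not pair the rats. Alternatives were other background corrections and scalings, other probe filters, chip or replicate number as a block, brightness, length score or array weights, and leaving out replicates. The number of arrays limits the precision.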

Additional observations from a re-analysis of the deposited data

Results flagged for a closer look

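In 14 of 228 groups of 7 arrays examined for 114 named genes, the highest or lowest array stood apart from the next by more than Dixon's critical share of the group's whole range, where about 5% of groups are expected to do so by chance. Early exercise replicate 1 was the highest of its group for Fkbp5 (log2 level 10.87, next 9.71), Scd (12, next 8.16) and Car3 (11.61, next 9.20) and the lowest for Kcnj8 (7.99, next 8.21). Early exercise replicate 5 was the lowest for Col5a2 (10.64, next 10.91) and Sparcl1 (13.45, next 13.66) and the highest for Bnip3l (11.81, next 11.59). The lowest early exercise array was replicate 7 for Ndufb7 (13.74, next 13.85) and replicate 3 for Gpx4 (13.59, next 13.77). Among later exercise arrays replicate 5 was the lowest for Gadd45b (6.66, next 7.34) and Rnf125 (7.40, next 7.92). Replicate 6 was the highest for Maoa (11.77, next 11.48), replicate 4 for Cox8a (13.48, next 13.20) and replicate 2 for Mark2 (10.95, next 10.68).

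The age difference between the trained groups differed from that between the sedentary groups in limma's test of the difference itself for 5 named genes. The trained minus the sedentary log2 difference was 0.74 for Npl, -0.77 for Rnf125, -0.61 for Mark2, -1.14 for Bmpr2 and -1.11 for Itga1. None of the 5 passed with array brightness as a covariate, and the part of brightness in them was not tested further.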

How the results depend on the processing

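Of the 109 named genes past the threshold, 87 kept their call under each of 27 alternatives, in which none reversed, and 2834 of 2927 values stayed on their side of the threshold. When each array was scaled to the median of all its probes, 76 of the 109 passed with the same sign and 22 had the other sign without passing. The 2019 probes became 6298 (44 higher, 6254 lower) when each array was scaled to the median of all its probes and 5242 (4373 higher, 869 lower) when scaled to the median of its tested probes, a scaling added after seeing the data, so that the higher share of 43.8% became 0.699% and 83.4%. With array brightness as a covariate 1331 passed (607 higher, 724 lower), of which 1147 were among the 2019, and leaving out 1 replicate gave 1649 to 2142. The 1485 probes at the methods' thresholds became 738 without background correction, 5348 and 4679 under the 2 scalings, and 1374 to 1647 without 1 replicate. The 395 probes shared with sedentary hearts became 211 under the first scaling and 354 to 427 without 1 replicate. The 16 probes of the trained minus the sedentary difference became 27 without background correction, 3456 and 674 under the 2 scalings, 1 with no detection filter, 26 over probes detected on all 14 arrays, 59 with the chip as a block, 0 with brightness as a covariate, 29 with array weights, 4 without later exercise replicates 3 and 5 together, and 0 to 60 without 1 replicate. The cause of these changes was not tested. Within chips 1, 2 and 3, with too few arrays for the test, the ratio of raw signals was 0.877, 0.554 and 0.583 and that of detected probes 0.960, 0.896 and 0.952. Sod3, not past the threshold, changed sign to 0.00426 without later exercise replicates 3 and 5, and to 0.00316 and 0.00693 without early exercise replicate 4 or 5, within a range of -0.11 to 0.00693 without 1 replicate.

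Rats with the same replicate number did not deviate together, with correlations from -0.24 to 0.35, 2 of 7 above 0.1, and 1 of 7 later exercise arrays closest to its own number. With the replicate number as a block 2150 probes passed, and 52 in the trained minus the sedentary difference.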
